A study of Mus musculus with 18 samples.

Results

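The genes described here are 33 ependymal and motile cilia genes, out of 19938 genes that have a probeset of their own on the array. They comprise regulators of ciliogenesis, markers of ependymal cells and the structural parts of the motile axoneme, and they were taken by symbol from a list with no threshold on a measured value, although the list was drawn up with earlier results of these data known. Each gene is represented by the probeset that names it alone and has the highest mean over all arrays. All 33 had such a probeset, 31 under the current symbol and 2 under an older one (Dnai1 as Dnaic1 and Dnai2 as Dnaic2).

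RNA from the lateral septum (LS) of 18 outbred hsd:ICR female mice was hybridized to Affymetrix Mouse Gene 1.0 ST arrays, with 1 array per mouse. The groups were 6 virgin females, 6 lactating maternal females with their litter, and 6 females whose litter was taken away on postpartum Day 2 (pups removed), all about 70 days old. Litters were set to 11 pups at birth, maternal and pups removed brains were taken on Day 7, virgin brains were taken on the same days from females in diestrus, and pups removed females were in diestrus as well. LS was punched from frozen sections on both sides and pooled within each animal, so a sample holds every cell type inside the punch, including whatever part of the ventricular wall the punch took.

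Ependymal cells form the epithelium that lines the ventricles of the brain, and the LS borders the lateral ventricle. Their apical surface carries tufts of motile cilia that beat to move cerebrospinal fluid along the wall. The motile axoneme is built from doublet microtubules around a central pair, with outer and inner dynein arms as motors and with radial spokes between the doublets and the central pair. Foxj1, a forkhead transcription factor, switches on the genes of this machinery together with RFX factors, which bind a DNA motif called the X-box.

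The promoters of the members are shown first, because forkhead and X-box motifs are bound by regulators of the programme. Whether these motifs bear on the signals described below was not tested. The 250 bases before the start of each gene were searched on both strands in RefSeq promoters of build GRCm38.p6, in which 28 of the 33 genes had an entry. Foxj1, Rsph1, Rsph4a, Rarres2 and Cfap54 were not listed. The full X-box, GTNNCCNNNGNAAC, lay in the promoters of 4 genes (Hydin, Kif9, Spag16 and Tekt4), which is 14.3% of the 28 genes against 2.07% of all 27025 genes searched. The X-box matches are printed 5′ to 3′ on the strand of the gene, with up to 22 bases on either side and the match in capitals.
Spag16: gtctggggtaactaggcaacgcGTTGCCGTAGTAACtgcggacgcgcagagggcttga
Hydin: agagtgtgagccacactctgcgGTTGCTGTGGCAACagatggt
Kif9: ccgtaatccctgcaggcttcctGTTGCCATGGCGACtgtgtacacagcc
Tekt4: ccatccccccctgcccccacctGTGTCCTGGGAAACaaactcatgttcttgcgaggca

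These sequences lie at chr1:69826845-69826902 (Spag16), chr8:110266934-110266976 (Hydin), chr9:110476945-110476993 (Kif9) and chr17:25471408-25471465 (Tekt4), each upstream of a gene on the plus strand. In Hydin and Kif9 the motif reads along the opposite strand. The short X-box core GTTGCC was found in 10 of the 28 genes (35.7%, against 11.8% of all genes), and in Hydin, Kif9 and Spag16 it lies inside the full match. A forkhead motif, TGTTTAC or its reverse complement GTAAACA, was found in 3 genes (10.7%, against 3.54% of all genes), printed in the same way.
Mlf1: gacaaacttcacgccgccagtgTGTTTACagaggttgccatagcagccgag
Ak7: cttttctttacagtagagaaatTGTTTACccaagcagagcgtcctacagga
Cfap43: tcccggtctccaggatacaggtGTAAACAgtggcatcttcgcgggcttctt

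The forkhead stretches lie at chr3:67373959-67374009 (Mlf1, plus strand), chr12:105705829-105705879 (Ak7, plus strand) and chr19:47837388-47837438 (Cfap43, minus strand). A match of letters is a description of the sequence and was not tested as a binding site.

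The deposited values are log2 signals per probeset, and all levels below are on that scale unless a percentage is given. Medians of the 18 arrays lay between 7.61 and 7.70. Of the 33 members, 23 had a mean above 7.646, the median of all probeset means, and are called bright, and 10 lay below it and are called dim (Mlf1, Dnah5, Dnah11, Ccdc40, Spag16, Spag17, Tekt1, Tekt4, Cfap126 and Armc3). Groups were compared in limma with 1 fit over all arrays, and a probeset was called where its p, adjusted by Benjamini-Hochberg, was under 0.25. That threshold was taken over from the methods of the study. The study reported more genes at that threshold in both maternal comparisons, so a gene not called here may be called there. The comparisons share arrays with each other, so their values are set side by side and are not independent of one another. How far the calls over all 35557 probesets rest on single arrays is shown by maternal against virgin LS, where 585 probesets were called with all arrays, 10 without maternal replicate 5 and 1639 without virgin replicate 6.

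**Figure D1:**
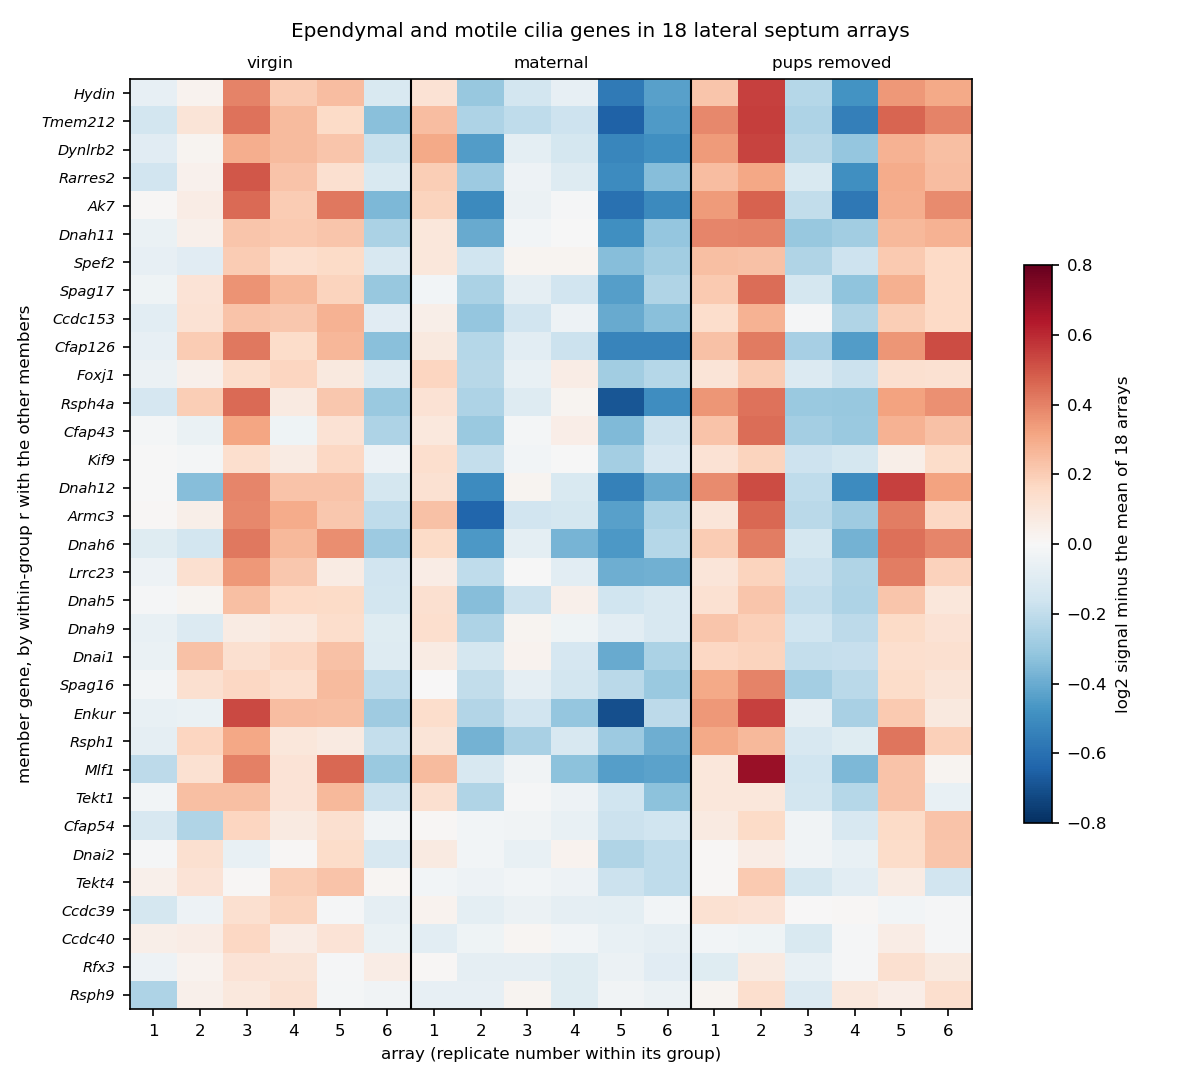
Heat map of the log2 signal of the 33 members (rows, ordered by their within-group correlation with the other members) in the 18 arrays (columns, by group and replicate number), as the difference from the gene's mean over 18 arrays. Most rows change colour together from array to array, with maternal replicates 5 and 6 and pups removed replicate 4 low and pups removed replicate 2 high.

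In maternal relative to virgin LS, all 33 members had a lower mean, but none passed the test. The median difference of the members was -0.25, and single members ranged from -0.38 for Ak7 to -0.04 for Rsph9. Over all probesets the median difference was 0.01, and 43.7% had a lower mean in maternal LS. Of the members 0 were called by limma (1.65% of all probesets were), the lowest adjusted p being 0.262 for Ccdc153, and 14 had an unadjusted p under 0.05, all lower in maternal LS (4.62% of all probesets were lower at that level). The members varied together over the arrays (median r over pairs 0.812, described below), so these are not counts of independent genes. The mean of the bright members overlapped between the groups, from 8.30 to 8.72 in virgin and from 8.08 to 8.56 in maternal LS. In whole tissue, fewer ependymal cells in a punch, less RNA per ependymal cell and a different amount of choroid plexus in the punch cannot be told apart. Choroid plexus markers moved with the members, as described below.

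Foxj1, the regulator of the programme, ran from 8.20 to 8.48 in virgin LS (median 8.37), from 8.03 to 8.48 in maternal LS (median 8.17) and from 8.14 to 8.51 in pups removed LS (median 8.42). The groups overlapped, with 1 maternal array as high as the highest virgin array and 3 maternal arrays, at 8.03, 8.08 and 8.09, below every virgin and pups removed array. The difference between maternal and virgin LS was -0.14 (SE 0.08, 95% interval -0.31 to 0.04, limma adjusted p = 0.576). Rfx3, the other regulator among the members, binds the X-box and differed by -0.10, with all 6 maternal arrays under the virgin mean (SE 0.04, limma adjusted p = 0.387).

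The ependymal markers Rarres2, Ccdc153, Tmem212 and Mlf1 differed by -0.28 to -0.32 between maternal and virgin LS. Ccdc153, a coiled-coil protein gene of ependymal cells, had log2 signals of 8.89, 9.09, 9.20, 9.19, 9.25 and 8.88 in virgin LS. The maternal values were 9.02, 8.66, 8.82, 8.93, 8.57 and 8.64, and the pups removed values were 9.11, 9.25, 8.96, 8.73, 9.17 and 9.13. Every maternal array lay under the virgin mean of 9.08, and 2 of them, at 9.02 and 8.93, stood above the lowest virgin value of 8.88. The difference was -0.31 (SE 0.10, 95% interval -0.51 to -0.11), a signal 19.3% lower, and limma's adjusted p of 0.262 fell just short of the threshold. Rarres2 encodes chemerin, a secreted chemoattractant, and its difference was -0.28 (SE 0.15, limma adjusted p = 0.523). Tmem212 differed by -0.32 (SE 0.19, limma adjusted p = 0.569) with a wide spread in every group, from 8.04 to 8.93 in maternal and from 8.35 to 9.12 in virgin LS. Mlf1, myeloid leukemia factor 1, has a dim probeset and differed by -0.28 (SE 0.17, limma adjusted p = 0.581).

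Among the dynein arm genes, the differences of the outer arm members ran from -0.25 (Dnah11) to -0.06 (Dnah9), and those of Dnah6, Dnah12 and Dynlrb2 from -0.33 to -0.30. Dnai1, an intermediate chain of the outer arm, ran from 7.90 to 8.24 in virgin LS (median 8.15), from 7.60 to 8.07 in maternal LS (median 7.87) and from 7.81 to 8.18 in pups removed LS (median 8.14). All 6 maternal arrays lay under the virgin mean, with an overlap between the groups, and the difference was -0.24 (SE 0.09, limma adjusted p = 0.358). The heavy chains are the ATP-driven motor subunits, and Dnah6 differed by -0.33 (SE 0.16, limma adjusted p = 0.493). Dnah5 and Dnah9, heavy chains of the outer arm, differed by -0.17 and -0.06, and Dnai2, the partner chain of Dnai1, by -0.09, all with intervals that took in 0. The arms are spaced along the doublet by a molecular ruler made of Ccdc39 and Ccdc40, whose genes differed by -0.05 and -0.11. Ccdc40 ran from 7.58 to 7.80 in virgin LS (median 7.69), from 7.55 to 7.65 in maternal LS (median 7.59) and from 7.51 to 7.69 in pups removed LS (median 7.62). Its groups overlapped within a narrow range, and its difference of -0.11 (SE 0.04, limma adjusted p = 0.315) had an unadjusted p under 0.05.

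The radial spoke genes Rsph1, Rsph4a, Rsph9 and Lrrc23 differed by -0.04 to -0.32. Rsph1, a protein of the spoke head, had log2 signals of 7.99, 8.23, 8.37, 8.15, 8.13 and 7.87 in virgin LS and of 8.16, 7.68, 7.80, 7.93, 7.77 and 7.67 in maternal LS. In pups removed LS its values were 8.36, 8.32, 7.93, 7.96, 8.49 and 8.25. Maternal replicate 1 stood among the virgin values, and the other 5 maternal arrays lay under the virgin mean. The difference was -0.29 (SE 0.11, limma adjusted p = 0.349). Rsph9, another spoke head gene, differed by -0.04 (SE 0.06, limma adjusted p = 0.848), the smallest difference among the members. Lrrc23, a leucine-rich repeat protein of the spokes, differed by -0.26 (SE 0.11, limma adjusted p = 0.429) with all 6 maternal arrays under the virgin mean. Rsph4a, a further spoke head protein, differed by -0.32 (SE 0.17, limma adjusted p = 0.527), and its lowest value over all arrays, 7.82, was that of maternal replicate 5.

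For the 7 genes of the central apparatus, which surrounds the central pair, differences ran from -0.38 to -0.07. Hydin, whose loss in mice stiffens the ciliary beat and causes hydrocephalus, differed by -0.35 (SE 0.16, 95% interval -0.68 to -0.02, limma adjusted p = 0.453), and Ak7, an adenylate kinase, by -0.38 (SE 0.19, limma adjusted p = 0.499). Ak7 signal was 23.2% lower in maternal LS, the largest of the 33 differences in this comparison. Its 95% interval, from -0.775 to 0.015, took in 0. Spag16 and Spag17, central pair proteins with dim probesets, differed by -0.23 and -0.29, and in both genes all 6 maternal arrays lay under the virgin mean. Spef2 (-0.14), Kif9, a kinesin (-0.13), and Cfap54 (-0.07) made up the smaller differences of this group, and the 95% intervals of these genes took in 0 as well. The value of Spef2 is that of its brightest probeset, and over its 22 probesets the differences ran from -0.49 to 0.07, with a median of -0.26.

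Of the 6 doublet and other axonemal genes, 5 had an unadjusted p under 0.05. Armc3, an armadillo repeat protein, differed by -0.36 (SE 0.15, limma adjusted p = 0.416), and Cfap126, known as Flattop, by -0.35 (SE 0.17, limma adjusted p = 0.479). Tekt1, a tektin, differed by -0.22 (SE 0.09, limma adjusted p = 0.429). Cfap43, a WD-repeat protein of the axoneme, had the smallest difference of the 6 by its brightest probeset, at -0.13 (SE 0.13, limma adjusted p = 0.768). Over its 5 probesets the differences ran from -0.405 to -0.13, with a median of -0.22.

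Tekt4, a tektin that forms filaments inside the doublet wall, was the 1 member whose maternal and virgin arrays did not overlap (0.835% of all probesets did not). Its virgin values were 7.27, 7.34, 7.24, 7.43, 7.46 and 7.25, its maternal values were 7.21, 7.19, 7.21, 7.19, 7.06 and 7.03, and its pups removed values were 7.24, 7.44, 7.09, 7.15, 7.30 and 7.08. The highest maternal value and the lowest virgin value were 7.21 and 7.24, while the pups removed arrays spread over both ranges. The difference was -0.18 (SE 0.06, limma adjusted p = 0.296), and its probeset is dim. Enkur, a protein inside the doublet microtubules, ran from 7.50 to 8.31 in virgin LS (median 7.88), from 7.08 to 7.92 in maternal LS (median 7.56) and from 7.52 to 8.33 in pups removed LS (median 7.93). These overlapping ranges gave a difference of -0.35 (SE 0.15, limma adjusted p = 0.442). Over all 33 members, 9 had all 6 maternal arrays under the virgin mean (7.58% of all probesets did).

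**Figure D2:**
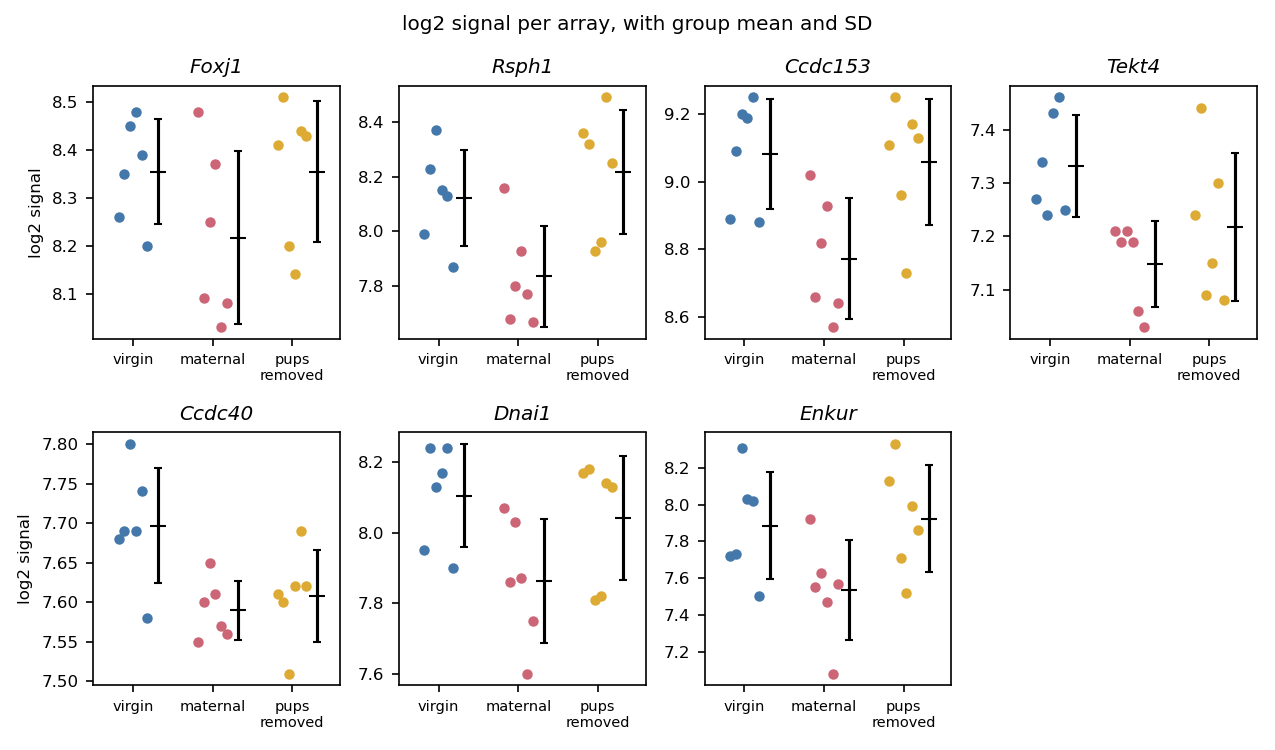
log2 signal of Foxj1 and of the 6 members with the smallest unadjusted p in any comparison, with a point per array (6 per group) and the group mean ± SD beside the points. The vertical axes differ between panels and do not start at 0. Only for Tekt4 do the maternal and virgin points stay apart, at 7.21 and below against 7.24 and above.

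Calls in this comparison depended on single arrays. Without virgin replicate 6, which had the lowest signals of its group for many members, 7 members were called, all lower in maternal LS (Ccdc40, Ccdc153, Rsph1, Spag17, Tekt4, Dnai1 and Tekt1, limma adjusted p from 0.16 to 0.216), while 4.61% of all probesets were called. Without maternal replicate 1, which had the highest signals of its group for many members, 3 were called (Ccdc153, Rsph1 and Armc3), with 2.66% of all probesets. Ccdc153 was called without virgin replicate 1 (limma adjusted p = 0.209, with 2.41% of all probesets called) and without pups removed replicate 4 (limma adjusted p = 0.189, with 2.14%), and Tekt4 without pups removed replicate 2 (limma adjusted p = 0.246, with 1.28%). All 33 members kept a lower mean in maternal LS whichever array was left out.

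In maternal relative to pups removed LS, all 33 members again had a lower mean and none passed the test. The study included the pups removed group to ask whether sensory input from pups has to continue. These groups also differ in nursing, which cannot be told apart from contact with pups. The maternal arrays are the same as in the comparison with virgin LS. The median difference was -0.24, from -0.42 for Dnah12 to -0.02 for Ccdc40, where all probesets had a median of 0.00 and 51.9% lay lower. Limma called 0 members (0.0309% of all probesets were called) and gave 15 an unadjusted p under 0.05, all lower in maternal LS (5.63% of all probesets were lower at that level). In 18 members all 6 maternal arrays lay under the pups removed mean (9.06% of all probesets). As the members varied together, these are not counts of independent genes either.

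Rsph1 had the lowest p of the members, with a difference of -0.38 (SE 0.11, 95% interval -0.61 to -0.16, limma adjusted p = 0.325) and a signal 23.3% lower in maternal LS. Its maternal arrays all lay under the pups removed mean of 8.22, but maternal replicate 1 at 8.16 stood above pups removed replicates 3 and 4, at 7.93 and 7.96. Ccdc153 differed by -0.29 (SE 0.10, limma adjusted p = 0.418) and Enkur by -0.39 (SE 0.15, limma adjusted p = 0.491). Among the inner arm motors, Dnah12 differed by -0.42 (SE 0.18, limma adjusted p = 0.527) and Dnah6 by -0.40 (SE 0.16, limma adjusted p = 0.499). Tmem212, a transmembrane protein gene of ependymal cells, differed by -0.41 (SE 0.19, limma adjusted p = 0.548). Tekt4 and Ccdc40, which stood out against virgin LS, differed by -0.07 (limma adjusted p = 0.779) and -0.02 (limma adjusted p = 0.917).

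Without pups removed replicate 4, 8 members were called, all lower in maternal LS (Rsph1, Ccdc153, Dnah12, Hydin, Spag17, Dnah6, Tmem212 and Cfap126, limma adjusted p from 0.191 to 0.247), and the count over all probesets went from 11 to 719 (2.02%). Without maternal replicate 1, Rsph1 alone was called (limma adjusted p = 0.22, with 0.574% of all probesets called).

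**Figure D3:**
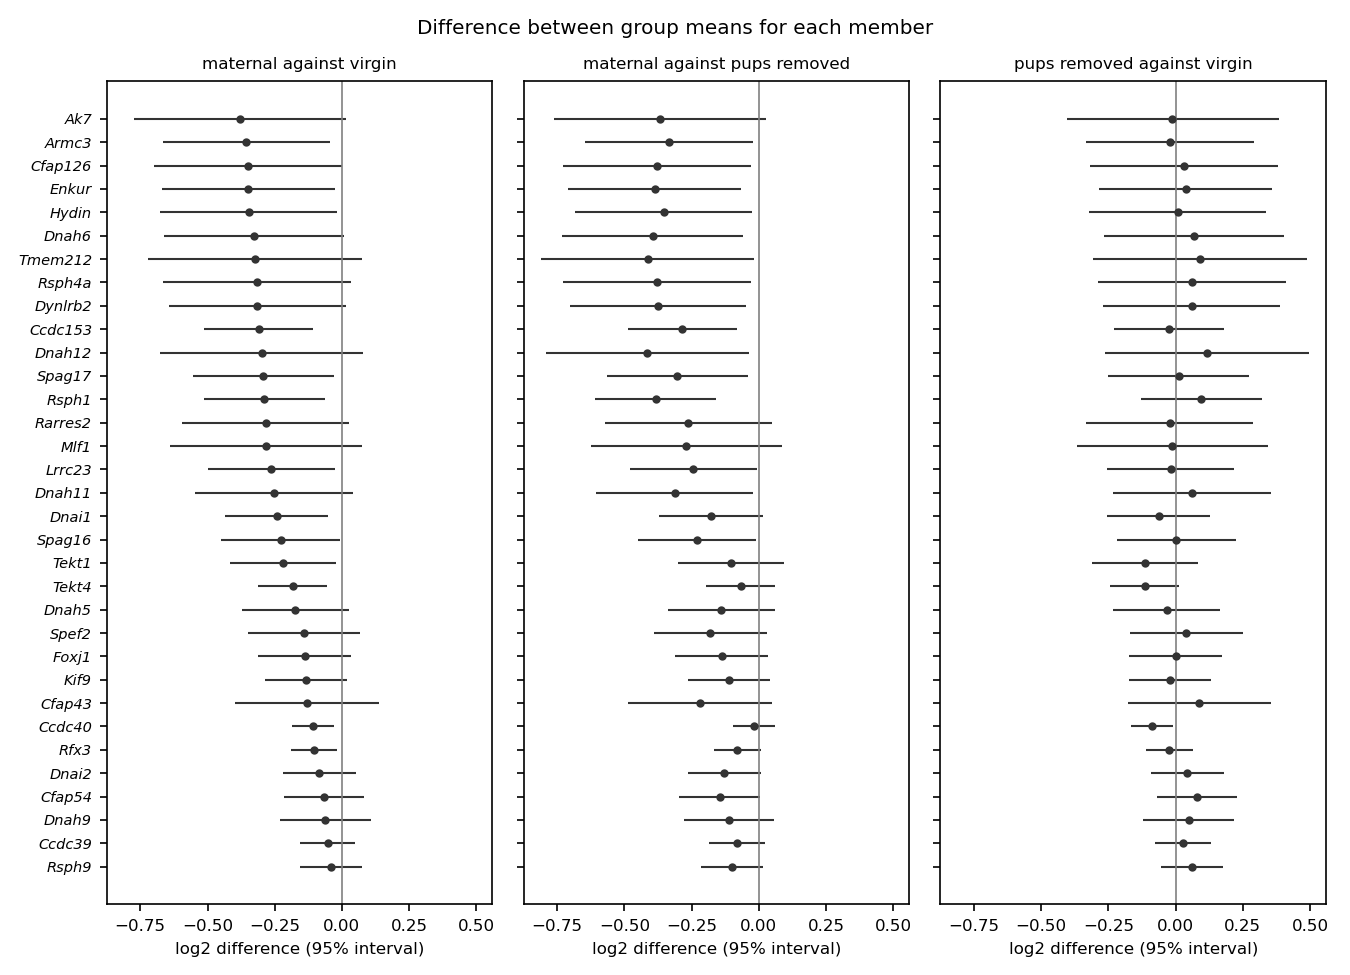
Difference in log2 signal between group means for each member (points) with its 95% interval from limma (lines), in the 3 comparisons. The points of both maternal comparisons lie left of 0, down to -0.42, and those of pups removed against virgin LS lie on both sides of 0.

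In pups removed relative to virgin LS the members lay on both sides of 0. The mean was lower in 13 (42.6% of all probesets had a lower mean) and higher in 19, with Foxj1 at 8.36 in both groups, and the median difference was 0.01 (0.01 over all probesets). Differences ran from -0.12 for Tekt1 and Tekt4 to 0.12 for Dnah12. Limma called 0 members (0.208% of all probesets), and 1 had an unadjusted p under 0.05, Ccdc40, lower in pups removed LS at -0.09 (SE 0.04, limma adjusted p = 0.569), where 1.99% of all probesets were lower at that level. The 95% interval of Foxj1 ran from -0.17 to 0.17 and that of Hydin from -0.32 to 0.34, so a difference inside those intervals cannot be told from none. The number of members with a lower mean moved with single arrays. It was 7 without virgin replicate 3, 22 without virgin replicate 6, 20 without pups removed replicate 2, 6 without pups removed replicate 3 and 5 without pups removed replicate 4.

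The members varied together from mouse to mouse inside each group, beyond any difference between the groups. The mean of the 23 bright members was 8.38, 8.46, 8.72, 8.61, 8.62 and 8.30 in the virgin arrays, 8.56, 8.21, 8.39, 8.37, 8.08 and 8.17 in the maternal arrays, and 8.65, 8.76, 8.30, 8.20, 8.70 and 8.66 in the pups removed arrays. The groups overlapped widely, and in the pups removed group 4 arrays lay high and 2 low. With each group's mean subtracted, the median Pearson r over the 528 pairs of members was 0.812 across the 18 arrays, 64.4% of pairs were above 0.7 and 1 pair was under 0. These coefficients are descriptive, since all genes of an array share its punch and its hybridization. The first principal component held 86.1% of the within-group variance of the members. The median over pairs was 0.805 within virgin, 0.785 within maternal and 0.872 within pups removed LS, and it was 0.751 over all arrays without pups removed replicates 3 and 4, the arrays farthest from their group.

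Measured against the mean of the other bright members, 27 of the 33 members had a within-group r above 0.7 (19 above 0.9), against 2.06% of all 21789 probesets that name 1 gene, whose median r was -0.10. Hydin (r 0.979, Spearman rho 0.967), Tmem212 (0.973, rho 0.975) and Dynlrb2, a roadblock light chain of dynein (0.966, rho 0.932), followed the rest most closely. The members with the loosest relation were Rsph9 (0.388, rho 0.349), Rfx3 (0.464, rho 0.546), Ccdc40 (0.531, rho 0.394), Ccdc39 (0.538, rho 0.437), Tekt4 (0.593, rho 0.489) and Dnai2 (rho 0.618). The looser members also had small spreads. The within-group SD was 0.07 for Rfx3, 0.06 for Ccdc40 and 0.10 for Rsph9, where the median of the members was 0.20 and that of all probesets naming 1 gene was 0.09.

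**Figure D4:**
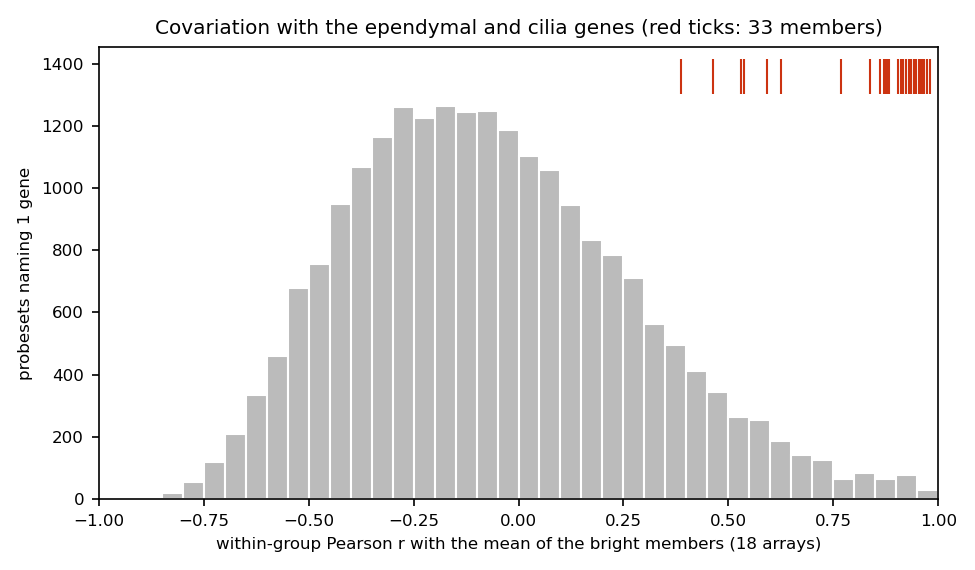
Histogram of the within-group Pearson r over 18 arrays between each of 21789 probesets that name 1 gene and the mean of the bright members, with the 33 members marked as red ticks, each against the mean of the other bright members. The bulk of probesets lies around -0.10 and 27 member ticks lie above 0.7.

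The relation was tested with Foxj1 as the covariate beside the groups in limma, at an adjusted p under 0.05 over all 35556 other probesets. Of the 32 members other than Foxj1, 25 rose with Foxj1 (0.7% of all probesets did), and all 32 slopes were above 0. The slopes gave the change in log2 signal per log2 unit of Foxj1 and had a median of 1.18. The steepest were those of Ak7 (2.18, SE 0.22, limma adjusted p = 6.9e-05) and Tmem212 (2.17, SE 0.24, limma adjusted p = 0.000121). The closest fit was that of Dynlrb2 (slope 1.88, SE 0.15, limma adjusted p = 6.13e-06). The 7 that did not pass were Rfx3 (0.20, limma adjusted p = 0.544), Dnai2, Ccdc39, Ccdc40 (0.15, limma adjusted p = 0.634), Rsph9, Cfap54 and Tekt4. Leaving out single arrays left 19 to 25 members called, the fewest without pups removed replicate 4.

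Members with a steeper slope on Foxj1 inside the groups also differed more between the groups. Across the 32 members, slope and difference had a Pearson r of -0.863 (Spearman rho -0.862) for maternal against virgin and of -0.908 (rho -0.894) for maternal against pups removed LS. Members are not independent of each other, and all of them were read from the same 18 arrays. Because 1 component held 86.1% of their within-group variance, any shift of it between groups would by itself scale the differences with the slopes. The coefficients are therefore no separate support for a difference between groups.

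More than 1 probeset names 5 of the members alone, and these served as a check within the gene. All 22 probesets of Spef2, a central apparatus protein, had an r above 0.7 with the members (0.711 to 0.969), as did all 5 of Cfap43, all 3 of Dnah6 and both of Dnah12. Of the 22 Spef2 probesets, 21 had a lower mean in maternal than in virgin LS and 22 in maternal than in pups removed LS. For Cfap54, 1 of its 2 probesets had an r above 0.7. Limma called none of these probesets in any comparison.

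The 10 probesets most like the members were those with the highest within-group r, and they named 5 genes, of which all but Lrrc74b are in the list of other motile cilium genes. Dnali1, a light intermediate chain of the inner dynein arm, came first (r 0.984, rho 0.983), and 6 of the 10 were probesets of Dnah3, an inner arm heavy chain whose 33 probesets had r from 0.679 to 0.984. Spata18 (0.975), Lrrc74b (0.969) and Cdhr4 (0.967) completed the 10. Dnali1 differed by -0.34 between maternal and virgin LS (limma adjusted p = 0.5) and by -0.35 between maternal and pups removed LS (limma adjusted p = 0.556).

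Of 105 other motile cilium genes with a probeset, 87 had a lower mean in maternal than in virgin LS (median -0.10), 2 fell and 0 rose, so that 1.9% of the list was called against 1.65% of all probesets. The genes that fell were Ak8, an adenylate kinase, by 0.33 (SE of 0.08, limma adjusted p = 0.168), and Rsph14, a radial spoke gene, by 0.30 (SE of 0.08, limma adjusted p = 0.211). Against pups removed LS, 90 had a lower mean in maternal LS (median -0.12) and 0 were called by limma (35 at an unadjusted p under 0.05), the lowest p being that of Ak8 (-0.31, SE 0.08, limma adjusted p = 0.31), followed by Nme7 (-0.16, limma adjusted p = 0.346). The mean of this list followed the mean of the members over the arrays with r 0.985 (rho 0.971), and 32 of the 105 rose with Foxj1 (0.7% of all probesets did).

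Genes that set up multiciliated cells and genes of cilia in general made up separate lists. Of 23 regulators of multiciliogenesis, 15 had a lower mean in maternal than in virgin LS (median -0.03) and 0 were called by limma (2 at an unadjusted p under 0.05), with E2f5 (-0.16, SE 0.05, limma adjusted p = 0.272) and Rfx4 (-0.12, SE 0.05, limma adjusted p = 0.349) lowest in p. Against pups removed LS 18 were lower (median -0.04), 0 were called (1 at an unadjusted p under 0.05), and Rfx4 came first (-0.18, SE 0.05, limma adjusted p = 0.31). In the study, Rfx4 is among the genes listed as significantly changed in both maternal comparisons. Only Myb (r 0.944) and Gmnc (r 0.863), which act early in the multiciliated fate, had an r above 0.7 with the members, and both rose with Foxj1 (limma adjusted p = 0.000108 and 0.0191). Of 52 genes of intraflagellar transport and the basal body, which primary cilia of neurons and glia use too, 29 were lower (median -0.01), 1 rose (Traf3ip1 by 0.14, SE 0.04, limma adjusted p = 0.216) and 0 fell. That is 1.92% of the list called, against 1.65% of all probesets. In this list 0 genes had an r above 0.7 and 0 rose with Foxj1, and the list mean had an r of 0.248 (rho 0.255) with the members. Against pups removed LS, 40 of the 52 were lower (median -0.03) and 0 were called (4 at an unadjusted p under 0.05), with Ift57, a subunit of the transport complex, lowest in p (-0.17, SE 0.04, limma adjusted p = 0.278). In pups removed against virgin LS, 0 genes of these 3 lists were called, and the medians were 0.02, 0.00 and 0.04.

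Further genes known from ependymal cells but shared with other cells moved in part with the members. Of 20 such genes, 18 had a lower mean in maternal than in virgin LS (median -0.13), and the list mean had an r of 0.916 (rho 0.926) with the members. Pltp, a phospholipid transfer protein, fell by 0.39 (SE 0.12, limma adjusted p = 0.238) and Nnat fell by 0.19 (SE 0.05, limma adjusted p = 0.179). Fam107a rose by 0.22 (SE 0.04, limma adjusted p = 0.111), and it rose by 0.33 against pups removed LS (SE 0.04, limma adjusted p = 0.000923), where it was the 1 gene of the list called. Its within-group r with the members was -0.01.

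Markers of the choroid plexus, the secretory epithelium that hangs in the ventricle, moved with the members. All 20 markers had a lower mean in maternal than in virgin LS (median -0.45) and in maternal than in pups removed LS (median -0.42), and 0 were called in either comparison (1 in each at an unadjusted p under 0.05, lowest limma adjusted p 0.328 and 0.544, both for Aqp1). Their mean per array ran from 7.41 to 8.95 in virgin, from 7.40 to 8.54 in maternal and from 7.35 to 8.90 in pups removed LS, and it followed the mean of the members with an r of 0.861 (rho 0.862) within groups, or 0.789 without the 2 farthest arrays. Ttr, transthyretin, a major secreted product of choroid plexus, ran from 9.22 to 13.83 in virgin, from 8.38 to 13.58 in maternal and from 8.34 to 13.76 in pups removed LS. The list mean was lowest in pups removed replicates 4 (7.35) and 3 (7.36), maternal replicates 2 (7.40) and 5 (7.42) and virgin replicate 6 (7.41). Of the 20 markers 16 had an r above 0.7 with the members and 11 rose with Foxj1 (0.7% of all probesets did). The part of choroid plexus in the results on the members was not tested.

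Markers of striatal medium spiny neurons, which lie across the ventricle from the LS, lay under their virgin level in maternal LS in 16 of 16 cases (median -0.47), and 6 fell, among them Bcl11b by 0.31 (SE 0.07, limma adjusted p = 0.128). That is 37.5% of the list called, against 1.65% of all probesets. Against pups removed LS 16 of 16 were lower (median -0.33) and 0 were called (11 at an unadjusted p under 0.05). The list mean ran from 10.23 to 10.47 in virgin, from 9.49 to 10.10 in maternal and from 9.70 to 10.61 in pups removed LS, with an r of 0.602 (rho 0.713) with the members, or 0.44 without the 2 farthest arrays. Of 13 genes of neural stem and transit amplifying cells, which lie under the ependyma of the ventricular wall, 12 were lower and 4 fell, among them Nr2e1 by 0.22, Egfr by 0.22 and Fabp7 by 0.48 (limma adjusted p from 0.111 to 0.124). The called share was 30.8% of this list, against 1.65% of all probesets. The mean of this list had an r of 0.789 (rho 0.777) with the members, with 3 of its genes above 0.7. Single genes differed, with an r of 0.726 for Nr2e1, 0.522 for Egfr and -0.237 for Fabp7. Of 12 neuroblast genes, 8 were lower and 0 were called (2 at an unadjusted p under 0.05). Their mean had an r of 0.645 (rho 0.445), with 2 genes above 0.7, Cd24a (0.939) and Nrep (0.749). The part of these cell types in the results on the members was not tested either.

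The median difference of the other cell type lists stayed between -0.02 and 0.10 in maternal relative to virgin LS. Against virgin LS the median difference was -0.02 for 14 astrocyte genes, 0.02 for 11 genes of lateral septal neurons, 0.03 for 12 of meningeal fibroblasts, 0.00 for 9 of oligodendrocytes, 0.01 for 9 of microglia, 0.01 for 9 of endothelial cells and 0.10 for 2 of blood. In these lists P2ry12 and Aif1, genes of microglia, fell by 0.18 and 0.15 (limma adjusted p = 0.114 and 0.179), and Flt1, an endothelial receptor, rose by 0.15 (limma adjusted p = 0.19), while 1.65% of all probesets were called. Against pups removed LS limma called 0 of their genes (14 at an unadjusted p under 0.05), and the medians ran from -0.07 for meningeal fibroblasts to 0.28 for blood. The r of their list means with the members ran from -0.288 for lateral septal neurons to 0.327 for oligodendrocytes. The mean of the lateral septal neuron list stayed between 9.68 and 9.84 over all arrays. Its genes went both ways, with 5 lower and 6 higher in maternal than in virgin LS, and what each punch held was not tested.

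**Figure D5:**
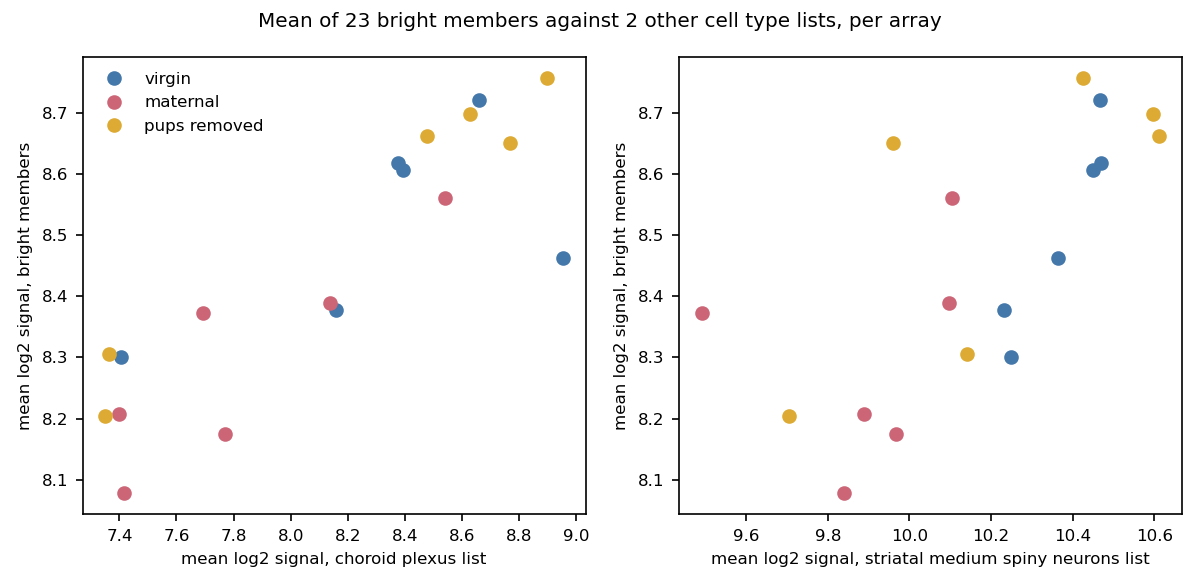
Mean log2 signal of the 23 bright members (vertical axes) against the mean of the choroid plexus list (left) and of the striatal medium spiny neuron list (right), with a point per array coloured by group. Arrays low in the choroid plexus list, near 7.4, are low in the members in all 3 groups, between 8.08 and 8.30.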

How the data were processed

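The authors hybridized RNA from 6 of 8 LS samples collected per group, made the deposited log2 signals with PLIER and GC bin background correction in Affymetrix Power Tools 1.12.0, the step in which their methods also place the normalization, without naming a separate method between arrays. Values were used as deposited (35557 probesets, of which 21789 name 1 gene, 1621 several and 12147 none in the platform annotation). Arrays have no read depth, and their number limits the precision.

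Groups were taken from the sample titles. A model with 3 groups was fitted in limma 3.58.1 (R 4.3.3) to all 18 arrays, with variances moderated by eBayes (2.62 prior degrees of freedom), Benjamini-Hochberg adjustment over all probesets and a threshold of 0.25. A second fit added the log2 signal of Foxj1 as a covariate, with a threshold of 0.05. Within-group coefficients were taken after subtracting group means. Both fits were tested on simulated data over 35557 probesets. For maternal against virgin LS the fit recovered 82%, 99% and 100% of added differences of 0.3, 0.6 and 1 with 22 false calls. The Foxj1 fit recovered 75% of 200 added slopes with 0 other calls. The changed probesets were drawn from all those naming 1 gene, whose median within-group SD was 0.09, against 0.20 for the members. These shares were therefore not measured at the spread of the members.

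The members and gene lists were chosen with earlier results of these data known. Values by array or range are given for Foxj1 and the 6 members with the smallest unadjusted p in any comparison. Outside the members, the 10 probesets most like them, called genes of the cilium lists (or those with the smallest p) and up to 3 leading genes of other lists are named. Ttr, Myb and Gmnc were named after their values were seen. Motifs were searched in RefSeq promoters of GRCm38.p6 with Python 3.11.15.

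Alternatives were quantile normalization, a replicate block, only the groups compared, leaving out dim probesets, an intensity trend with robust priors, array weights, a threshold of 0.05, the mean of all probesets of a gene, other covariates than Foxj1, no groups beside the covariate, and leaving out each array.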

Additional observations from a re-analysis of the deposited data

How the results depend on the processing

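The direction of the members did not depend on the settings tried. All members tested had a lower mean in maternal than in virgin and in pups removed LS under every alternative, and with single arrays left out the median difference ran from -0.31 to -0.21 against virgin and from -0.31 to -0.17 against pups removed LS. The number of members called moved from 0. Against virgin LS it was 1 with quantile normalization (Tekt4), 1 with an intensity trend and robust priors (Ccdc153), 4 of 23 with dim probesets left out (Ccdc153, Rsph1, Dnai1 and Rfx3) and 0 to 7 with single arrays left out. Against pups removed LS it was 1 with dim probesets left out (Rsph1), 2 with array weights (Rsph1 and Ccdc153) and 0 to 8 with single arrays left out. For pups removed against virgin LS, the members with a lower mean numbered 7 of 23 with dim probesets left out, 5 with array weights and 5 to 22 with single arrays left out, against 13.

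Over all probesets, the calls for maternal against virgin LS (585) became 1309 with dim probesets left out, 0 at a threshold of 0.05 (3706 had an unadjusted p under 0.05) and 10 to 1639 with single arrays left out. Those for maternal against pups removed LS (11) became 42 with quantile normalization, 225 with dim probesets left out, 30 with an intensity trend and robust priors, 783 with array weights, 5 at a threshold of 0.05 and 5 to 719 with single arrays left out. Those for pups removed against virgin LS (74) became 33 with only the 2 groups, 24 with dim probesets left out, 42 with array weights, 7 at a threshold of 0.05 and 18 to 266 with single arrays left out. The probesets called on Foxj1 (270) became 480 with Tmem212 as the covariate, 520 without groups and 174 to 369 with single arrays left out, while 23 to 26 members were called over these alternatives, other than leaving out arrays. The cause was not tested.

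The study prepared its RNA in matched sets with a sample from every group, and the labels do not say whether replicate numbers mark these sets. Over 18 same-numbered pairs the correlation of deviations ran from -0.248 to 0.0953, and none was above 0.1. Arrays of a set need not deviate together, so this cannot show whether the numbers mark the sets. A replicate block gave 356 calls over all probesets for maternal against virgin LS and changed no call of a member between groups, and 24 members were called on Foxj1. With 6 arrays per group, intervals of single members were wide, and a difference under the threshold was not shown to be absent.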
